A study of Homo sapiens with 28 samples.

Results

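The peroxisome proliferator-activated receptors (PPARs) PPARA, PPARD and PPARG, their heterodimer partners RXRA and RXRB, the coactivators PPARGC1A and PPARGC1B, and the target genes ANGPTL4 and PDK4 were followed across fatty acid and RSL3 treatments of HT-1080 cells. These 9 genes were chosen by name, for their roles in fatty acid sensing, out of 60286 genes in the count tables. The choice was made with earlier results of these data known. RNA from HT-1080, an established human fibrosarcoma cell line, was sequenced after overnight incubation in 7 groups of 4 libraries. The design text calls these libraries independent replicates. The genotype given for the cells is wild type, and no sequence variants were examined here. The groups were 10 nM RSL3 with 80 µM CLA 18:2, 80 µM CLA 18:2 alone, 10 nM RSL3 with 80 µM LA, 80 µM LA alone, 5 µM CLA 18:3, 10 nM RSL3 alone, and the DMSO vehicle. LA is linoleic acid and CLA 18:2 a conjugated linoleic acid, an isomer whose double bonds stand next to each other along the chain. CLA 18:3 is a conjugated acid with a further double bond. RSL3 is an inhibitor of GPX4, a selenoenzyme that detoxifies peroxidised membrane lipids. Doses are in µM as in the design text, whereas the sample labels write mM for the fatty acids. All groups were cultures of the same cell line, and every comparison with DMSO shares the same 4 DMSO libraries. The record numbers of the LA and CLA18:2 samples run apart from those of the other groups. Whether they were handled apart is not given. Comparisons of LA or CLA18:2 libraries with a group outside this pair would carry any such difference.

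PPARs are nuclear receptors that bind long-chain fatty acids and their derivatives and act on DNA as heterodimers with a retinoid X receptor (RXR). Ligand binding exchanges corepressors for coactivators and raises transcription of genes for fatty acid oxidation, lipid storage and lipoprotein handling. PPARD is broadly expressed, PPARA is best known in liver and PPARG in adipose tissue, and ANGPTL4 and PDK4 are widely used readouts of PPAR activity in many cell types.

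Library totals lay between 16226270 and 24286824 counts, and 16325 genes passed the filter on low counts. Levels are CPM, the read count of a gene scaled to a common library size after TMM normalization. Differences are log2 fold changes with standard errors (SE) from edgeR's quasi-likelihood test, called at an adjusted p under 0.05 over all genes tested. All 14 mesenchymal markers were tested in these cells, with a summed level of 19790 to 25590 CPM, whereas 0 of 10 blood cell and 0 of 10 hepatocyte markers passed the filter. Of 10 epithelial markers 3 passed it, with a summed level of 3.42 to 6.99 CPM for the whole list. Genes with a count numbered 18812 to 20653 in CLA18:3 libraries and 19212 to 21462 in RSL3+CLA18:2 libraries, against 21110 to 23636 in the other groups. Mitochondrially encoded transcripts held under 0.7% of counts in 8 libraries, of which 3 were RSL3+CLA18:2, 2 CLA18:2, 1 LA, 1 CLA18:3 and 1 RSL3. The part of both features in the results was not tested, and values without those 8 libraries are given beside the results they move most. That subset keeps 1 RSL3+CLA18:2 library, replicate 3, so its tests of that group assume that the lone library varies like the other groups. In bulk RNA, a change in the share of cells that express a gene and a change in its RNA per cell cannot be told apart.

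Per length of exon, PPARD was the most abundant of the 9 genes in every group and RXRA came next. Mean levels of PPARD lay between 27.8 CPM per kb in CLA18:2 and 38.6 CPM per kb in RSL3 libraries, and those of RXRA between 5.02 CPM per kb in CLA18:2 and 3.59 CPM per kb in DMSO libraries. PPARD made up 96.9% to 98.4% of the summed level per kb of the 3 PPAR genes across the group means. PPARA and PPARGC1B were much lower, at 0.399 to 0.880 CPM per kb. The mean ± SD of this pair overlapped in RSL3+CLA18:2, RSL3+LA, CLA18:3 and DMSO libraries, while PPARA stood higher in CLA18:2 libraries and PPARGC1B in LA and RSL3 libraries. RXRB, PPARG and PPARGC1A reached at most 0.228 CPM per kb in any group mean, and PDK4 had no count. ANGPTL4 held rank 3 of the 9 genes in RSL3+CLA18:2, CLA18:2 and RSL3+LA libraries, rank 4 in LA, rank 8 in CLA18:3, rank 5 in RSL3 and rank 6 in DMSO libraries. Its mean ± SD overlapped that of a gene next to it in order in each group other than RSL3+CLA18:2.

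**Figure D1:**
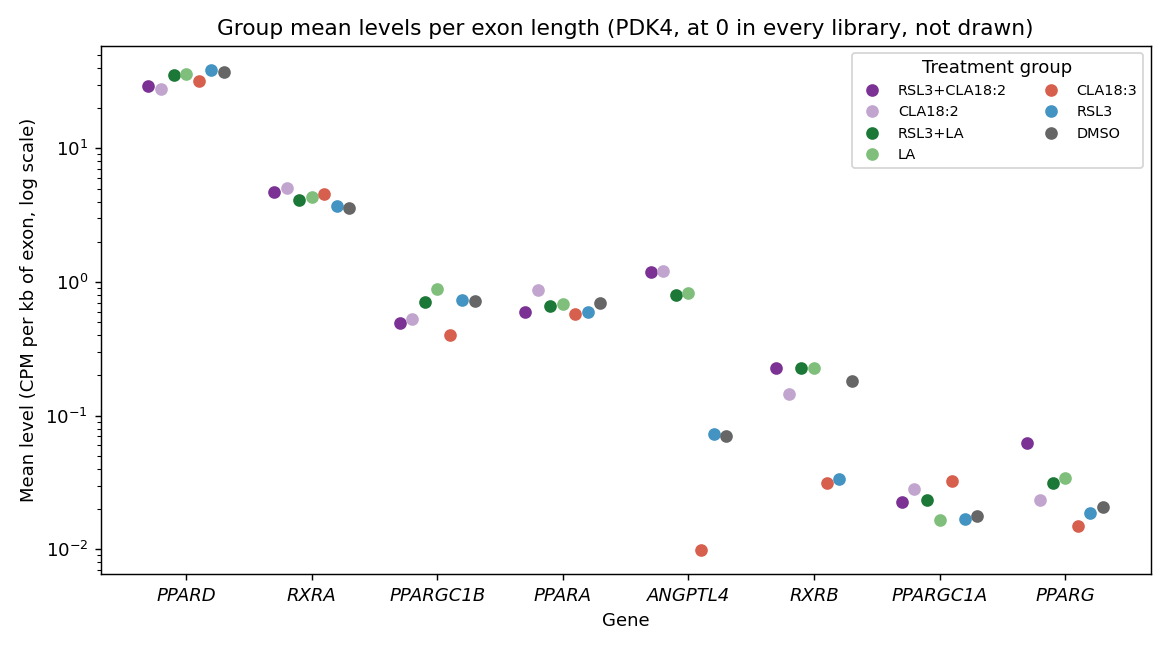
Mean level per kb of exon (CPM per kb, log axis) of 8 genes in each of the 7 treatment groups, 1 point per group and no error bars. PPARD lies between 27.8 and 38.6 CPM per kb in every group, while ANGPTL4 spans from 0.00985 in CLA18:3 to 1.21 CPM per kb in CLA18:2 libraries.

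Of the 9 genes, 6 passed the filter on low counts: PPARA, PPARD, RXRA, RXRB, PPARGC1B and ANGPTL4. ANGPTL4 passed only through the groups given LA or CLA18:2, so its place among the 6 depends on where it is high. CLA18:2 against DMSO, which asks what the conjugated isomer alone changed, moved 4 of the 6 genes. RXRA and ANGPTL4 rose and PPARD and PPARGC1B fell, beside 38.8% of all genes tested (20.1% higher and 18.6% lower). Adding RSL3, RSL3+CLA18:2 against DMSO gave calls in the same direction for each of those 4 genes, beside 35.2% of all genes (18.6% higher and 16.6% lower). CLA18:3 against DMSO had calls for RXRA, which rose, and for PPARD, PPARGC1B and ANGPTL4, which fell, beside 35.9% of all genes (19.1% higher and 16.7% lower). The ANGPTL4 call there sets 2 counts against 14. Each of these backgrounds is large, so the counts of 4 among 6 are read as a description of the genes and not as a feature of the set.

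LA against DMSO, the same question for the unconjugated isomer, gave 2 calls, RXRA and ANGPTL4, both higher, beside 8.32% of all genes (4.91% higher and 3.41% lower). Since ANGPTL4 passed the filter through groups such as LA, this count too is a description. RSL3+LA against DMSO gave the same pair, beside 10.2% of all genes (5.43% higher and 4.81% lower). RSL3 against DMSO called 0 of the 6 genes by edgeR and 0 by DESeq2, beside 0.202% of all genes (0.178% higher and 0.0245% lower). These were 33 genes, with 989 at an unadjusted p under 0.05. The lowest unadjusted p among the 6 genes in that comparison was that of RXRB, at 0.0436. Thus the calls on PPARD and PPARGC1B stood in the groups with a conjugated acid, and the difference itself was tested between the isomers at the same dose. CLA18:2 against LA called RXRA higher and PPARD and PPARGC1B lower, beside 30.2% of all genes (15.6% higher and 14.6% lower). The same 3 genes were called in the same directions in RSL3+CLA18:2 against RSL3+LA, beside 26.1% (14.1% higher and 12% lower).

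The remaining comparisons ask what RSL3 added to a fatty acid or a fatty acid to RSL3. With RSL3 as the baseline, RSL3+CLA18:2 gave the same 4 calls as CLA18:2 against DMSO, beside 30.4% of all genes (15.9% higher and 14.5% lower). RSL3+LA against RSL3 called ANGPTL4 higher, beside 9.58% (3.78% higher and 5.8% lower). RSL3+CLA18:2 against CLA18:2 called 0 of the 6 genes by edgeR and 1 by DESeq2 (PPARA), beside 11.9% of all genes (6.65% higher and 5.24% lower), and PPARA alone of the 6 had an unadjusted p under 0.05 there. RSL3+LA against LA called 0 by either tool, beside 0.049% (0.0368% higher and 0.0123% lower), with 1158 genes at an unadjusted p under 0.05. The interaction of RSL3 with LA and that of RSL3 with CLA18:2 called 0 of the 6 genes each, beside 0.0245% (all lower) and 3.55% of all genes (1.75% higher and 1.8% lower).

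**Figure D2:**
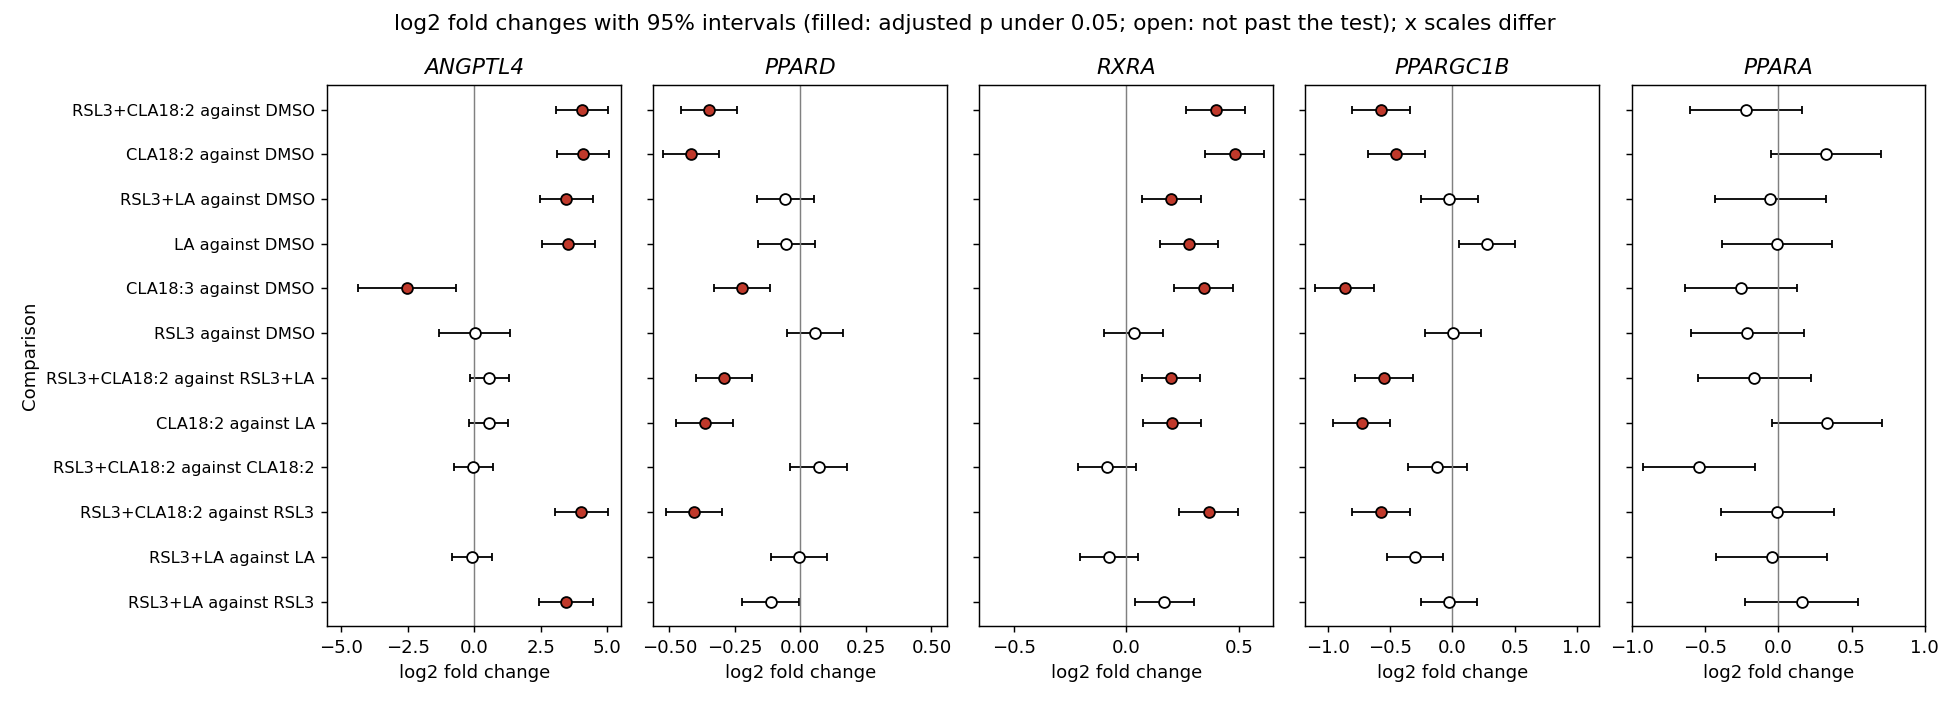
Log2 fold changes with 95% intervals of ANGPTL4, PPARD, RXRA, PPARGC1B and PPARA in 12 comparisons, each named with the group on top of the fold first (filled points passed at an adjusted p under 0.05). The x axes differ between genes: ANGPTL4 reaches 4.08 in CLA18:2 against DMSO, whereas PPARD stays between -0.42 and 0.07.

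PPARD (chr6:35342558-35428191, GRCh38, plus strand) is the receptor isoform with the widest tissue range and a regulator of fatty acid use. It fell under both conjugated acids and did not pass the test under LA. CLA18:2 libraries had 118, 125, 125 and 126 CPM and LA libraries 158, 162, 150 and 166 CPM, against 161, 175, 165 and 159.5 CPM in DMSO libraries. All CLA18:2 libraries lay below all LA and all DMSO libraries, and the LA and DMSO ranges overlapped. The fold change against DMSO was -0.42 ± 0.05 (SE) in CLA18:2 (adjusted p = 5.6e-08) and -0.05 ± 0.05 in LA (adjusted p = 0.704, 95% interval -0.16 to 0.05). Between the isomers, PPARD was lower in CLA18:2 than in LA by a log2 fold change of -0.36 ± 0.05 (adjusted p = 1.19e-06). CLA18:3 libraries had 149.5, 126, 146 and 145 CPM, also below every DMSO library, at -0.22 ± 0.05 against DMSO (adjusted p = 0.00111).

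RSL3+CLA18:2 libraries had 123, 144, 124 and 128 CPM and RSL3+LA libraries 160.5, 154, 163 and 157 CPM. PPARD fell by 0.35 ± 0.05 in RSL3+CLA18:2 against DMSO (adjusted p = 2.25e-06), and RSL3+CLA18:2 against CLA18:2 gave 0.07, with a 95% interval of -0.04 to 0.18 and an adjusted p of 0.464. RSL3 alone had 182, 176.5, 159.9 and 169 CPM, which overlapped the DMSO libraries (0.06 ± 0.05, adjusted p = 0.989). The calls on PPARD in CLA18:2, RSL3+CLA18:2 and CLA18:3 against DMSO held in all 14 alternatives run for each.

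PPARA (chr22:46150521-46243756, plus strand), the receptor that drives hepatic fatty acid oxidation in fasting, passed the test in no comparison. Its levels were 13.1, 10.97, 10.5 and 11.2 CPM in CLA18:2 libraries, against 9.99, 9.53, 9.71 and 7.31 CPM in DMSO libraries. All 4 CLA18:2 libraries lay above all 4 DMSO libraries, yet the fold change of 0.32 ± 0.18 had an adjusted p of 0.176 and a 95% interval of -0.05 to 0.70. With only the groups compared in the fit, that adjusted p was 0.0194, and for CLA18:2 against LA, at 0.33 ± 0.18, it was 0.0119 in place of 0.189. RSL3+CLA18:2 libraries spread from 5.402 to 10.8 CPM and CLA18:3 libraries from 4.07 to 10.2 CPM, wider than the LA libraries (8.76 to 9.43 CPM) or the RSL3 libraries (7.22 to 8.44 CPM). RSL3+LA libraries had 6.69 to 10.6 CPM and overlapped the DMSO libraries. The largest fold change of PPARA was that of RSL3+CLA18:2 against CLA18:2, at -0.54 ± 0.19, with an adjusted p of 0.0524 that lay between 0.00464 and 0.930 over 14 alternatives and passed the threshold in 5 of them. Without the 8 libraries low in mitochondrial transcripts, CLA18:3 against DMSO passed at an adjusted p of 0.0497, and the fold change of RSL3+CLA18:2 against DMSO was 0.22 in place of -0.22 (adjusted p = 0.542), on 1 RSL3+CLA18:2 library.

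PPARG (chr3:12287368-12434356, plus strand), the receptor of adipocyte differentiation, was near the detection floor. Its 28 libraries held 73 counts in all, with 0 to 10 per library. RSL3+CLA18:2 libraries had 4, 10, 3 and 5 counts, against 0, 3, 3 and 2 counts in DMSO libraries. The ratio of the summed CPM was 2.81 with a 95% interval of 1.21 to 7.31, which covers counting error only. The exact permutation test over libraries gave p = 0.0571 (two-sided, n = 4 and 4), or 0.343 adjusted over the 6 comparisons with DMSO. The smallest p this design allows is 0.0286, and the other 5 comparisons with DMSO had higher p-values. No change of PPARG was detectable at this depth.

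**Figure D3:**
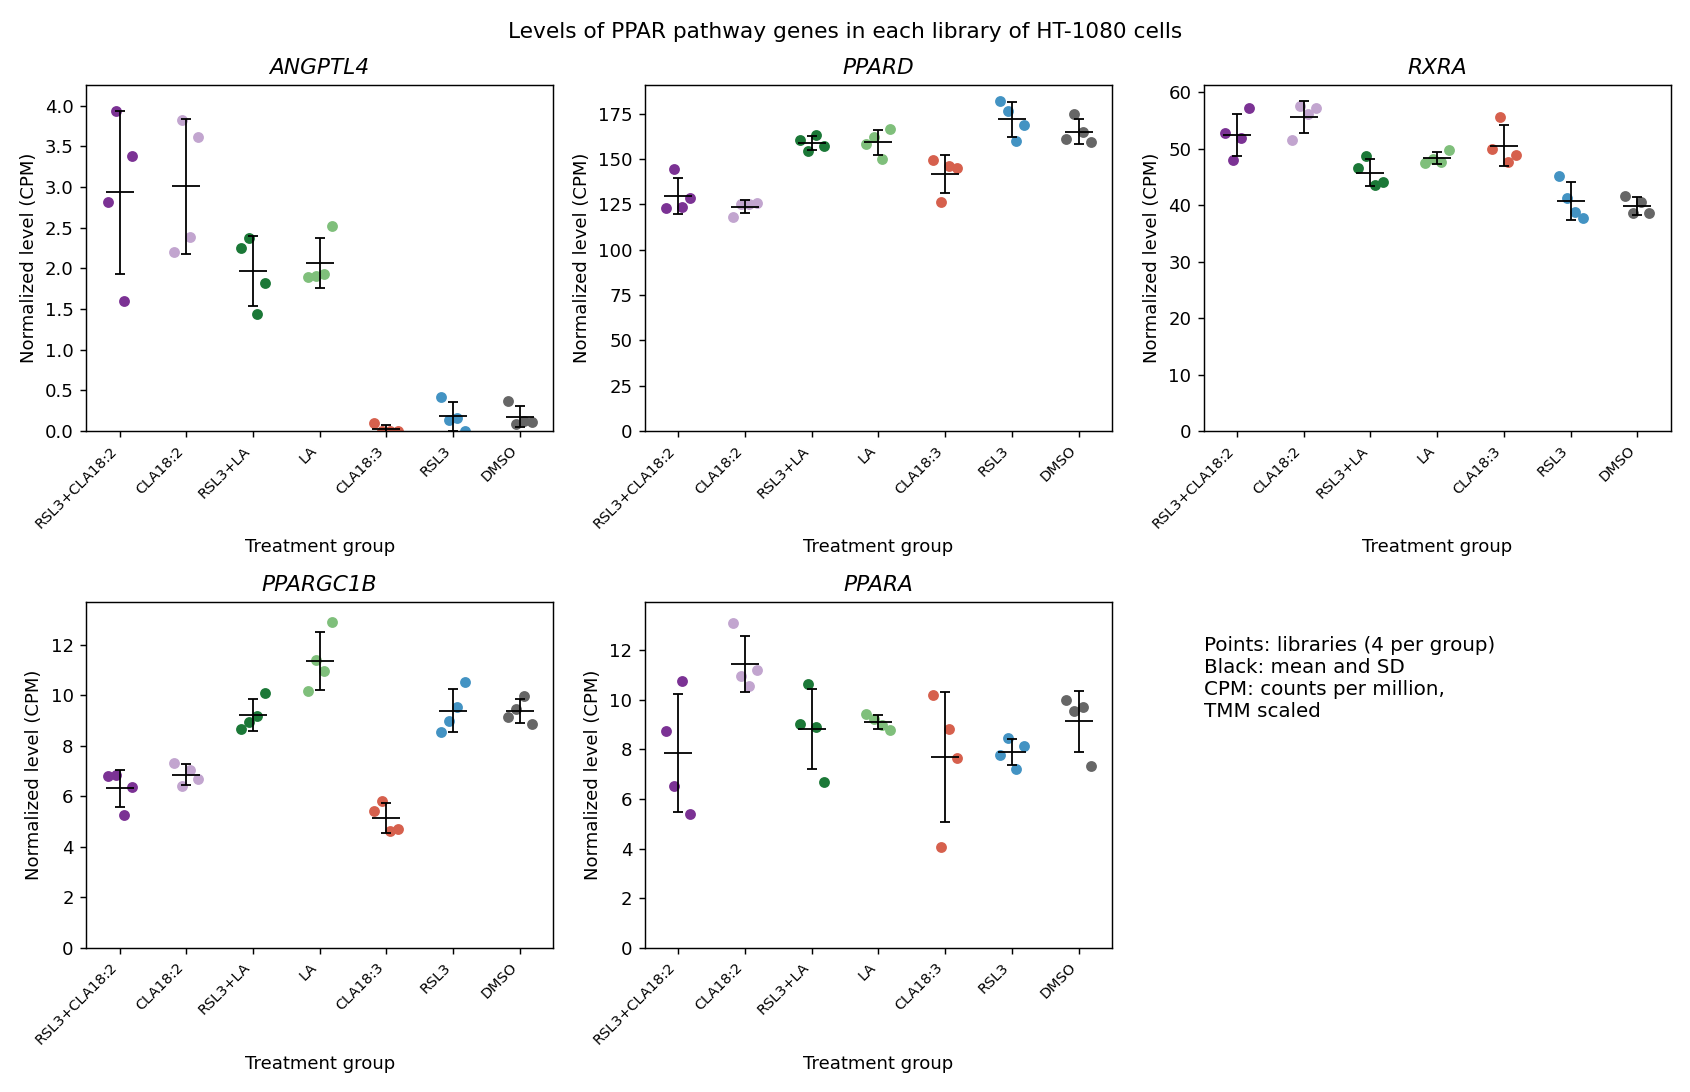
Normalized level (CPM) of 5 genes in each library, in 7 treatment groups of 4, with mean and SD in black. ANGPTL4 lies at 1.43 CPM or above in every library given LA or CLA18:2 and at or below 0.425 CPM in every other library, and PPARD in CLA18:2 lies below 126 CPM while every DMSO library is above 159 CPM.

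RXRA (chr9:134317098-134440585, plus strand) is the retinoid X receptor that pairs with PPARs, retinoic acid receptors and other nuclear receptors. It was higher under each of the 3 fatty acids, by a modest amount. CLA18:2 libraries had 51.5, 57.6, 56.2 and 57.2 CPM and LA libraries 47.5, 48.1, 47.7 and 49.8 CPM, against 41.6, 38.6, 40.6 and 38.6 CPM in DMSO libraries. CLA18:3 libraries had 50.02, 55.7, 47.6 and 48.8 CPM. None of these 3 groups overlapped the DMSO libraries, and CLA18:2 lay wholly above LA. The fold change against DMSO was 0.48 ± 0.06 (SE) in CLA18:2 (adjusted p = 1.49e-07), 0.28 ± 0.06 in LA (adjusted p = 0.00357) and 0.34 ± 0.06 in CLA18:3 (adjusted p = 6.4e-05). CLA18:2 exceeded LA by 0.20 ± 0.06 (adjusted p = 0.0129, and at most 0.0466 in 14 alternatives).

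With RSL3, RXRA had 52.7, 48.0, 51.9 and 57.1 CPM in RSL3+CLA18:2 libraries and 46.6, 48.7, 43.6 and 44.2 CPM in RSL3+LA libraries. RSL3 alone gave 45.3, 41.3, 38.7 and 37.7 CPM, around the DMSO levels. RSL3+CLA18:2 against DMSO was at 0.40 ± 0.06 (adjusted p = 6.49e-06). RSL3+LA against DMSO was at 0.20 ± 0.06 with an adjusted p of 0.0418, a call that 9 of 14 alternatives ended, with adjusted p-values up to 0.175. It was lost without any one of DMSO replicates 1 (0.0532), 2 (0.143), 3 (0.0713) and 4 (0.126) and of RSL3+LA replicates 1 (0.101), 2 (0.175) and 4 (0.0538). RSL3+CLA18:2 against RSL3+LA, at 0.20 ± 0.06 and an adjusted p of 0.0201, was lost in 6 of 14 alternatives, among them without RSL3+LA replicates 3 (0.0609) or 4 (0.0504), without RSL3+CLA18:2 replicate 4 (0.0856) and without the libraries low in mitochondrial transcripts (0.216, on 1 RSL3+CLA18:2 library). RSL3+LA against RSL3, at 0.17 ± 0.06, did not pass (adjusted p = 0.106), and passed without RSL3 replicate 1 (0.0302).

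With PPARD lower and RXRA higher under the conjugated acids, their ratio per kb differed between groups. It averaged 0.164 ± 0.0202 in RSL3+CLA18:2, 0.181 ± 0.00428 in CLA18:2, 0.116 ± 0.00831 in RSL3+LA, 0.122 ± 0.0039 in LA, 0.145 ± 0.022 in CLA18:3, 0.0953 ± 0.00446 in RSL3 and 0.0971 ± 0.00629 in DMSO libraries (RXRA over PPARD, SD, n = 4 each). The ratio is a description, since it rests on the same values as the tests above. The lowest CLA18:2 library (0.175) stood above the highest LA library (0.128), and the lowest LA library (0.119) above the highest DMSO library (0.104).

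RXRB (chr6:33193588-33200688, minus strand), another RXR able to pair with PPARs, split the libraries into a high and a low set. It had 56, 4, 2 and 1 counts in RSL3+CLA18:2 libraries, 3, 5, 29 and 2 in CLA18:2, 4, 34, 29 and 4 in RSL3+LA, and 19, 8, 36 and 7 in LA libraries. CLA18:3 libraries had 2, 0, 3 and 5 counts and RSL3 libraries 2, 3, 4 and 1 counts, against 5, 22, 3 and 26 counts in DMSO libraries. The 8 libraries with 19 or more counts came from 5 groups, including 2 of the 4 DMSO libraries and none in CLA18:3 or RSL3, and no value lay between 8 and 19. RXRB passed in no comparison, with adjusted p-values of 0.0871 for CLA18:3 and 0.801 for RSL3 against DMSO (-2.47 ± 1.13 and -2.37 ± 1.13). With no low-count filter, CLA18:3 against DMSO passed (0.00341), as did RSL3+LA against RSL3 (0.00422) and RSL3+CLA18:2 against RSL3 (0.00172). CLA18:3 against DMSO also passed without the libraries low in mitochondrial transcripts (0.0448). RSL3+CLA18:2 against RSL3, at 2.66 ± 1.12 with all libraries, passed without RSL3+CLA18:2 replicate 2 (0.0488), 3 (0.0367) or 4 (0.0326), and without replicate 1, the library with 56 counts, it was at -0.20 (adjusted p = 0.928). In turn, RSL3+CLA18:2 against RSL3+LA, at -0.04 with all libraries, was at -2.91 without that replicate (adjusted p = 0.0434).

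The region around RXRB held few counts in general. Of 22 other protein-coding genes within 250 kb, 7 had no count in any library (31.8%) and 12 never reached 10 counts (54.5%), against 12.0% and 29.3% of 18903 protein-coding genes in the tables. SLC39A7, which overlaps RXRB, had 0 counts in all 28 libraries. RPS18, a ribosomal protein gene, had 42 to 98 counts per library, and BRD2 had 147 to 567. Of 9 protein-coding neighbours of PPARD on the same chromosome, 0 were without a count. Why counts were low around RXRB was not tested.

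**Figure D4:**
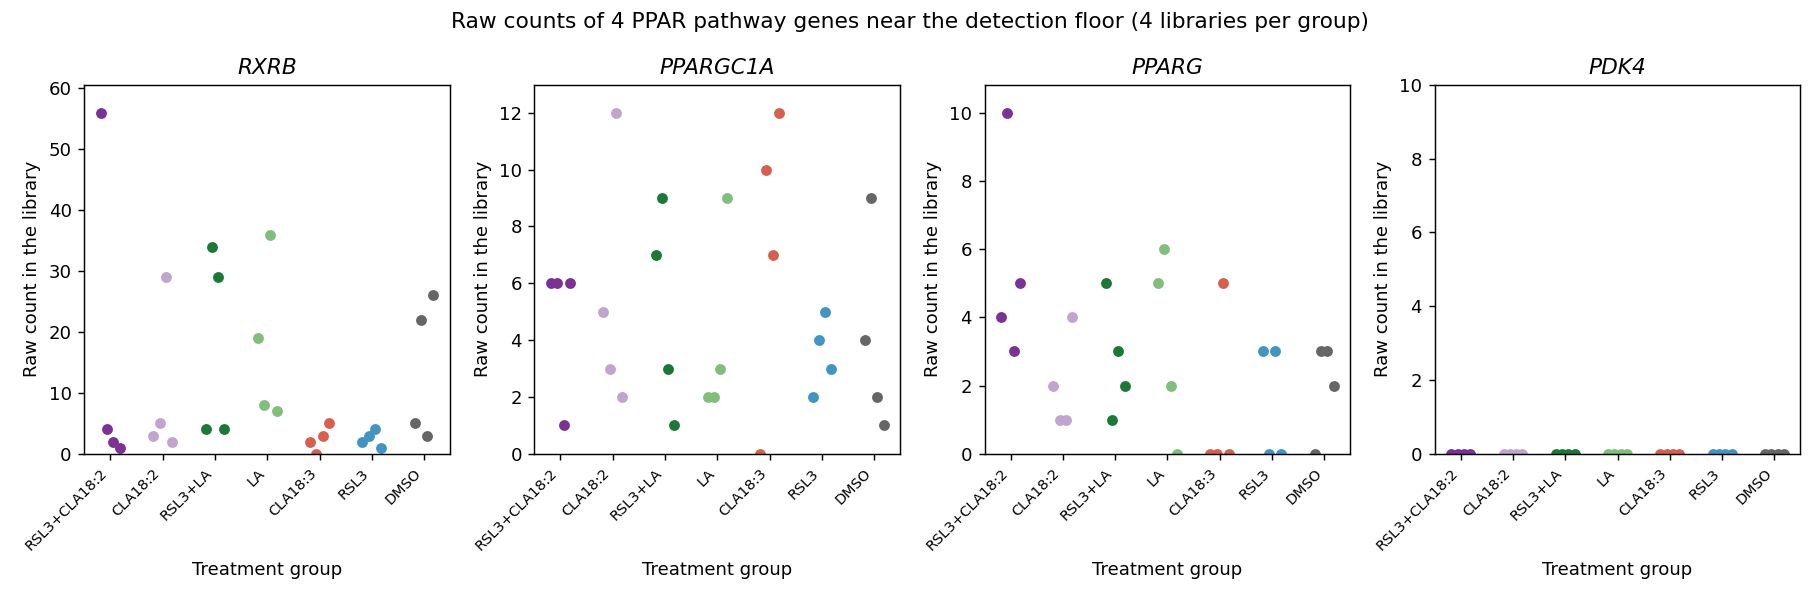
Raw counts of RXRB, PPARGC1A, PPARG and PDK4 in each library, in 7 treatment groups of 4 (y axes differ). RXRB has 8 libraries at 19 to 56 counts and 20 at 0 to 8, PPARG and PPARGC1A stay at or below 10 and 12 counts, and PDK4 has 0 counts throughout.

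PPARGC1B (chr5:149730298-149855022, plus strand), a coactivator of PPARs and estrogen-related receptors in mitochondrial metabolism, fell under both conjugated acids. CLA18:2 libraries had 7.31, 6.38, 7.05 and 6.69 CPM and LA libraries 10.2, 11.4, 10.95 and 12.9 CPM, against 9.15, 9.44, 9.97 and 8.87 CPM in DMSO libraries. CLA18:3 libraries had the lowest values, 5.43, 5.82, 4.63 and 4.68 CPM. Both conjugated acids lay wholly below DMSO and LA wholly above it. The fold change against DMSO was -0.45 ± 0.11 (SE) in CLA18:2 (adjusted p = 0.00164) and -0.86 ± 0.12 in CLA18:3 (adjusted p = 2.97e-07). In LA it was 0.28 ± 0.11, which did not pass (adjusted p = 0.139, 95% interval 0.05 to 0.50 before adjustment). CLA18:2 against LA gave -0.73 ± 0.11 (adjusted p = 3.57e-06).

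With RSL3, PPARGC1B had 6.79, 6.84, 5.27 and 6.35 CPM in RSL3+CLA18:2 and 8.65, 8.93, 9.17 and 10.1 CPM in RSL3+LA libraries. RSL3 alone had 8.55, 8.96, 9.53 and 10.5 CPM. RSL3+CLA18:2 lay below every DMSO library, while RSL3+LA and RSL3 overlapped DMSO. The fold change was -0.57 ± 0.11 in RSL3+CLA18:2 against DMSO (adjusted p = 1.4e-04) and -0.55 ± 0.11 in RSL3+CLA18:2 against RSL3+LA (adjusted p = 4.1e-04). RSL3+LA against LA was at -0.30 ± 0.11 and did not pass (adjusted p = 0.473). The calls on PPARGC1B in CLA18:2, CLA18:3 and RSL3+CLA18:2 against DMSO and in both isomer comparisons held in all 14 alternatives run for each. Without the libraries low in mitochondrial transcripts, the 1 RSL3+CLA18:2 library left put PPARGC1B at -0.84 against DMSO and -0.81 against RSL3+LA.

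PPARGC1A (chr4:23755041-23904089, minus strand), the related coactivator that is induced by cold and exercise, was too low to be tested, with 136 counts in 28 libraries and 0 to 12 per library. CLA18:3 libraries had 0, 10, 7 and 12 counts and CLA18:2 libraries 5, 3, 12 and 2, against 4, 9, 2 and 1 counts in DMSO libraries. The ranges overlapped in each of the 6 comparisons with DMSO, and the lowest exact permutation p was 0.343 (two-sided, CLA18:3, n = 4 and 4). Its ratio of summed CPM in CLA18:3 over DMSO was 1.82, with a counting interval of 0.957 to 3.59.

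ANGPTL4 (chr19:8363289-8374373, plus strand) encodes a secreted inhibitor of lipoprotein lipase and is a direct PPAR target. It rose in each of the 4 groups given LA or CLA18:2, with or without RSL3, to between 11.1 and 16.9 times its DMSO level in the fit. RSL3+CLA18:2 libraries had 49, 73, 35 and 75 counts, CLA18:2 libraries 46, 81, 39 and 66, RSL3+LA libraries 43, 48, 28 and 36 and LA libraries 37, 44, 36 and 62. CLA18:3 libraries had 2, 0, 0 and 0 counts and RSL3 libraries 7, 3, 3 and 0, against 7, 2, 3 and 2 counts in DMSO libraries. Every library with LA or CLA18:2 had at least 28 counts and every other library at most 7. In CPM, the means were 2.93 ± 0.997 in RSL3+CLA18:2, 3.01 ± 0.833 in CLA18:2, 1.97 ± 0.428 in RSL3+LA and 2.07 ± 0.308 in LA libraries, against 0.175 ± 0.129 in DMSO libraries (SD, n = 4 each).

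The fold change of ANGPTL4 against DMSO was 4.08 ± 0.48 (SE) in CLA18:2 (adjusted p = 1.28e-08) and 3.54 ± 0.49 in LA (adjusted p = 2.74e-06). With RSL3 it was 4.04 ± 0.48 in RSL3+CLA18:2 (adjusted p = 2.32e-08) and 3.47 ± 0.49 in RSL3+LA (adjusted p = 2.87e-06). From the summed counts alone, CLA18:2 stood 17.7 times above DMSO, with a 95% counting interval of 10.3 to 32.9, and LA 12.2 times, with an interval of 7.08 to 22.8. Between the isomers, CLA18:2 against LA gave 0.54 ± 0.37, with an adjusted p of 0.301 and a 95% interval of -0.20 to 1.28, and the libraries of the isomers overlapped. RSL3+LA against LA was at -0.07, with an interval of -0.82 to 0.68, and RSL3+CLA18:2 against CLA18:2 at -0.04, with an interval of -0.77 to 0.69.

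These folds rest on 14 DMSO counts, of which replicate 1 held 7. Without DMSO replicate 1 the fold change was 4.69 in CLA18:2, 4.14 in LA, 4.64 in RSL3+CLA18:2 and 4.07 in RSL3+LA. Without RSL3 replicate 1, which also held 7 counts, the fold change against RSL3 was 4.78 in RSL3+CLA18:2 and 4.21 in RSL3+LA, in place of 4.03 and 3.46. Without the 8 libraries low in mitochondrial transcripts, RSL3+CLA18:2 kept 1 library, at 35 counts, and stood at 3.16 against DMSO and 2.76 against RSL3. In that same subset RSL3+CLA18:2 against RSL3+LA was at -0.30 in place of 0.57, and RSL3+CLA18:2 against CLA18:2 at -1.23 (adjusted p = 0.203) in place of -0.04, passing in none of these cases. CLA18:2 against LA was at 0.97 there (adjusted p = 0.0839).

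The fold change of ANGPTL4 in CLA18:3 against DMSO was -2.54 ± 0.90 (adjusted p = 0.0264), near the detection floor in both groups. No library of either group had more than 7 counts. ANGPTL4 passed the low-count filter only through the groups given LA or CLA18:2, at 28 or more counts per library. The summed counts were 2 in CLA18:3 and 14 in DMSO libraries, a CPM ratio of 0.144 with a 95% counting interval of 0.0158 to 0.625. The call was lost without DMSO replicate 1 (adjusted p = 0.138) and without CLA18:3 replicate 2 (0.0739), 3 (0.0652) or 4 (0.0772). CLA18:3 was given at 5 µM and the other acids at 80 µM, so its values stand beside theirs without a comparison between compounds.

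The annotation places the antisense gene RAB11B-AS1 (chr19:8374373-8390685, minus strand) tail to tail with ANGPTL4, with 1 shared exonic base. This gene was singled out after its values were seen. RAB11B-AS1 had 159, 165, 126 and 136 counts in CLA18:2 and 148, 153, 98 and 178 counts in LA libraries, against 44, 41, 43 and 25 counts in DMSO libraries, with no overlap. Its fold change against DMSO was 2.03 ± 0.20 in CLA18:2 (adjusted p = 2.59e-10), 1.84 ± 0.20 in LA (adjusted p = 3.19e-08) and 0.00 ± 0.22 in CLA18:3 (adjusted p = 0.997). Whether counting used strand is not given in the sources used here, so reads from the pair near their shared end cannot be told apart.

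PDK4 (chr7:95583499-95596491, minus strand), a kinase that inhibits pyruvate dehydrogenase and spares glucose when fatty acids are burned, had 0 counts in all 28 libraries. A count of 0 allows up to 3 counts per group, which is 0.0350 CPM in LA and 0.0397 CPM in RSL3 libraries. No fold can be given, and a response of PDK4 was not detectable at this depth. Of the 4 protein-coding genes within 250 kb of PDK4, 2 also had no count.

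The promoters of ANGPTL4, of CPT1A (the oxidation gene with the smallest p in LA and in CLA18:2 against DMSO, described next) and of PDK4 are shown because these PPAR targets range from strong response to no count in the same libraries. Each runs from 250 bases before to 50 bases after the RefSeq start site, 5′ to 3′ on the gene's strand (RefSeq, GRCh38.p14), and TATAAA is in capitals where it occurs. ANGPTL4 lies at chr19:8363905-8364204 (plus strand), CPT1A at chr11:68844228-68844527 (minus strand) and PDK4 at chr7:95596467-95596766 (minus strand).
ANGPTL4: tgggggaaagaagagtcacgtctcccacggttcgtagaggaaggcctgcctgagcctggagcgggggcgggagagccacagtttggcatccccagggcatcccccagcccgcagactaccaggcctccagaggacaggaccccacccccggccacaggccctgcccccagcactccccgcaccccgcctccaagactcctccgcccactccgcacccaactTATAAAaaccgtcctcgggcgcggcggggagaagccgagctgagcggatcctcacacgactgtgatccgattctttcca
CPT1A: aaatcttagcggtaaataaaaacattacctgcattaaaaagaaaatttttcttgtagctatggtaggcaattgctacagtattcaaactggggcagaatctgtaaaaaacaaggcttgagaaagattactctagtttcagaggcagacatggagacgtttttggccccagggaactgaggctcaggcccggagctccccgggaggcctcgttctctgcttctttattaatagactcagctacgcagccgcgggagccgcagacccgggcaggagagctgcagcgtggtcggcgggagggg
PDK4: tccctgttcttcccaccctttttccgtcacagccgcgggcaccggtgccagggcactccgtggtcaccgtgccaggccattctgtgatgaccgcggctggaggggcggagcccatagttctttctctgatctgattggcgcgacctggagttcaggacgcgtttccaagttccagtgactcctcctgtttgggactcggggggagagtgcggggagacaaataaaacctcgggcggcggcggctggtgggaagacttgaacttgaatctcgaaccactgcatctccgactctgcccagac
On either strand, AGGTCA, the hexamer that nuclear receptors recognise, was in none of these 3 windows, against 13.8% of 35116 promoter windows of the same length. Its direct repeat with 1 base between, the canonical PPAR and RXR element known as DR1, was in none of the 3 and in 0.0228% of all windows. TATAAA was in the ANGPTL4 window alone, starting at position -29 from the start site, and in 11.5% of all windows. Among 18 promoter windows of the 9 genes, 3 held AGGTCA, all of PPARG. These are matches of exact letters in a short window and say nothing of binding elsewhere.

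Beyond the 9 genes, the list of PPAR target genes for fatty acid oxidation had 29 genes, of which 25 were tested. The lists used from here on may have been chosen after values were seen, so their counts are descriptions. In CLA18:2 against DMSO 14 were higher and 1 lower, beside 20.1% and 18.6% of all genes tested, with a median log2 fold change of 0.42, against -0.02 over all genes. CPT1A, the rate-limiting step of mitochondrial fatty acid import, was at 56.3 ± 2.77 CPM in CLA18:2 libraries and 9.69 ± 1.17 CPM in DMSO libraries (SD, n = 4 each), a fold change of 2.53 ± 0.09 (SE, adjusted p = 6.3e-22). CAT, the peroxisomal catalase, rose by 1.08 ± 0.07 and HSD17B4, a peroxisomal beta-oxidation enzyme, by 1.004 ± 0.05. ACAA2, the mitochondrial thiolase, rose by 1.06 ± 0.06 (all adjusted p at most 4.6e-14). The gene that fell was ECI1, an enoyl-CoA isomerase, at -0.42, named after its value was seen.

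In LA against DMSO 9 of those 25 genes were higher and 0 lower, beside 4.91% and 3.41% of all genes, with a median of 0.09 against 0.00 over all genes. CPT1A was at 43.9 ± 3.10 CPM in LA libraries, a fold change of 2.18 ± 0.09 (adjusted p = 6.9e-19). SLC25A20, the carnitine-acylcarnitine carrier, rose by 1.29 ± 0.12, ACAA2 by 0.99 ± 0.06 and ECH1, an auxiliary oxidation enzyme, by 0.78 ± 0.08. Between the isomers, CLA18:2 against LA had 11 higher and 1 lower, beside 15.6% and 14.6% of all genes, with a median of 0.20 against -0.02 over all genes. The named differences were HSD17B4 at 0.78 ± 0.05, CAT at 0.60 ± 0.07 and ETFDH, which passes electrons to the respiratory chain, at 0.46 ± 0.07 (all adjusted p at most 2.9e-06). The gene that was lower was again ECI1.

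In CLA18:3 against DMSO 11 of the 25 oxidation genes were higher and 2 lower, beside 19.1% and 16.7% of all genes, with a median of 0.23 against 0.00 over all genes. HSD17B4 rose by 0.62 ± 0.05, ECH1 by 0.62 ± 0.08, ACADVL, the very-long-chain acyl-CoA dehydrogenase, by 0.46 ± 0.07 and HADHA, a subunit of the mitochondrial trifunctional protein, by 0.32 ± 0.06. CPT1A was at 12.95 ± 1.32 CPM there, against 9.69 ± 1.17 CPM in DMSO libraries, a rise of 0.41 ± 0.09 (adjusted p = 7.4e-04). The genes that fell, named after their values were seen, were ECI1 (-0.29 ± 0.09) and CPT1B, the muscle form of CPT1 (-2.96 ± 0.81). CPT1B had 6 counts in CLA18:3 and 50 counts in DMSO libraries. RSL3 against DMSO called 0 of the 25 (all genes: 33 calls), also in DESeq2. In RSL3+CLA18:2 against DMSO 12 were higher and 0 lower, beside 18.6% and 16.6% of all genes, with a median of 0.32 against -0.02 over all genes. In RSL3+LA against DMSO 7 were higher and 0 lower, beside 5.43% and 4.81%, with a median of 0.12 against 0.01.

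**Figure D5:**
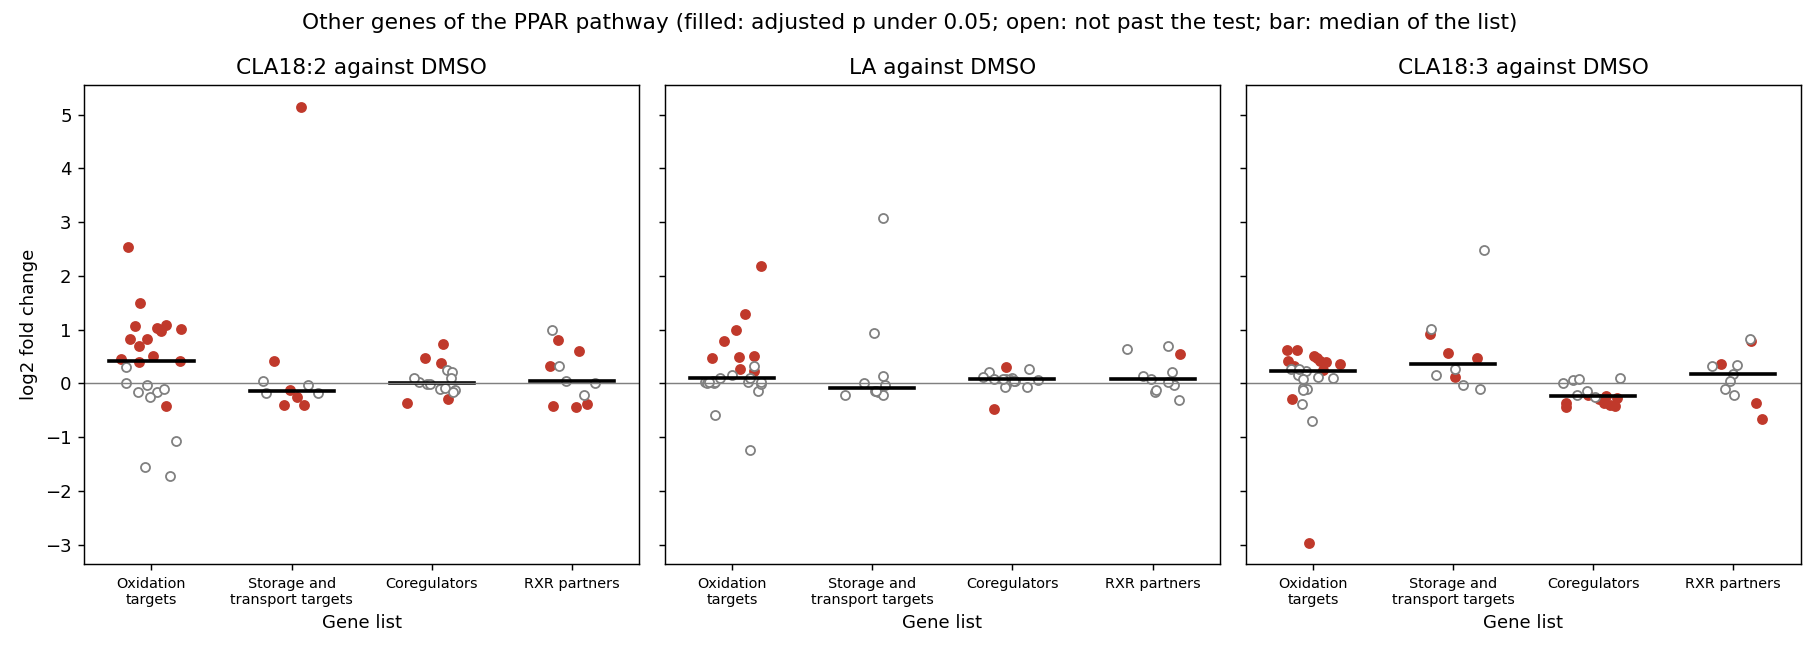
Log2 fold change of each tested gene of 4 lists in CLA18:2, LA and CLA18:3 against DMSO (filled points passed at an adjusted p under 0.05, bars are list medians, sideways spread is for legibility only). The oxidation list has its median at 0.42 in CLA18:2, 0.09 in LA and 0.23 in CLA18:3, and 9 of 16 coregulators fell in CLA18:3.

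The list of PPAR targets for lipid storage, transport and secretion had 25 genes, of which 10 were tested. LA against DMSO called 0 of them, beside 8.32% of all genes (4.91% higher and 3.41% lower), so 0 of 10 is near the background. CLA18:2 against DMSO called 2 higher and 4 lower, beside 20.1% and 18.6% of all genes, with a median of -0.15 against -0.02 over all genes. The share that was higher is that of the background. It counts PLIN2, which passed the low-count filter only through the groups given CLA18:2, where it was high. FABP5, a fatty acid binding protein that delivers ligand to PPARD, was at 28.6 ± 2.32 CPM in CLA18:2 and 37.7 ± 2.00 CPM in DMSO libraries, a fold change of -0.40 ± 0.08 (adjusted p = 1.1e-04). ACSL1, an acyl-CoA synthetase, was at -0.26 ± 0.08 and HILPDA, an inhibitor of lipolysis, at -0.41 ± 0.14. PLIN2, the lipid droplet coat protein, had 50 counts in CLA18:2 libraries and 1 count in DMSO libraries. This is a CPM ratio of 53.4 with a counting interval of 9.15 to 2150. PLIN2 had 27 counts in RSL3+CLA18:2, 14 in RSL3+LA, 13 in LA, 8 in CLA18:3 and 4 in RSL3 libraries. Its CPM ratio of LA to DMSO was 12.4, with a counting interval of 1.86 to 527. The numbers of storage genes called in CLA18:2 against DMSO moved with the libraries. The lower count was 2 without DMSO replicate 3, without CLA18:2 replicate 3, without the libraries low in mitochondrial transcripts and with no low-count filter, and the higher count was 1 without any one of DMSO replicates 1, 3 and 4 or CLA18:2 replicates 2, 3 and 4.

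CLA18:3 against DMSO called 4 of the 10 storage genes higher and 0 lower, beside 19.1% and 16.7% of all genes, with a median of 0.37 against 0.00 over all genes. FABP5 rose by 0.56 ± 0.08 there (adjusted p = 5.7e-07), whereas it fell in CLA18:2 against DMSO. CLA18:3 was given at 5 µM and CLA18:2 at 80 µM, so these acids are not compared. FABP4, the adipocyte fatty acid binding protein, had 6.71 ± 1.43 CPM in CLA18:3 and 3.54 ± 0.281 CPM in DMSO libraries (0.92 ± 0.18, adjusted p = 8.2e-05). MGLL, the monoacylglycerol lipase, rose by 0.47 ± 0.12 and ACSL3 by 0.12 ± 0.04. FABP4 was the only one of 10 adipocyte markers that passed the low-count filter. The list summed to 5.09 to 8.34 CPM in CLA18:3 and 3.46 to 4.07 CPM in DMSO libraries, and ADIPOQ, PCK1 and RETN had 0 counts in all 28 libraries.

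All 16 coactivators and corepressors on the third list were tested. CLA18:3 against DMSO called 9 lower and 0 higher, beside 16.7% and 19.1% of all genes, with a median of -0.24 against 0.00 over all genes. NCOA6, a coactivator of many nuclear receptors, fell by 0.44 ± 0.08, MED1, the Mediator subunit that binds PPARs, by 0.40 ± 0.06 and PPRC1, a relative of PPARGC1A, by 0.37 ± 0.06 (all adjusted p at most 5.7e-05). Genes with a count numbered 18812 to 20653 in CLA18:3 and 23082 to 23636 in DMSO libraries, and the part of this in the result was not tested. CLA18:2 against DMSO called 3 higher and 2 lower, beside 20.1% and 18.6% of all genes, with a median of 0.01 against -0.02, so the share called is no higher than that of all genes. NCOA3, a coactivator, was at 61.8 ± 7.10 CPM in CLA18:2 and 37.2 ± 3.10 CPM in DMSO libraries (0.73 ± 0.08, adjusted p = 5.7e-10), TBL1X, an exchange factor for corepressors, rose by 0.46 ± 0.08, and PPRC1 fell by 0.37 ± 0.06. The higher count was 5 without DMSO replicate 4 and with only the groups compared. LA against DMSO called CITED2, a CBP/p300 binding protein, lower (-0.49 ± 0.07) and TBL1X higher (0.29 ± 0.08), and the TBL1X call was lost without DMSO replicate 3 or 4, LA replicate 4 or the libraries low in mitochondrial transcripts. CLA18:2 against LA gave NCOA3 at 0.61 ± 0.07 (adjusted p = 4.6e-08).

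Of 14 nuclear receptors that share RXR as partner, 11 were tested, and RXRG, the remaining RXR, had 0 counts in all 28 libraries. CLA18:2 against DMSO called 3 higher and 3 lower, beside 20.1% and 18.6% of all genes, with a median of 0.03 against -0.02 over all genes. RARG, a retinoic acid receptor, rose by 0.60 ± 0.13 and NR1H2, an oxysterol receptor, by 0.32 ± 0.06, while RARA fell by 0.45 ± 0.09 and VDR, the vitamin D receptor, by 0.39 ± 0.09 (all adjusted p at most 4.1e-04). LA against DMSO called 1 higher, beside 4.91% of all genes, RARG at 0.54 ± 0.13 (adjusted p = 0.00376), and 3 higher with only the groups compared. VDR was at 28.7 ± 3.31 CPM in CLA18:2, 43.1 ± 2.26 CPM in LA and 23.6 ± 3.04 CPM in CLA18:3 libraries, against 37.4 ± 2.47 CPM in DMSO libraries. It was lower in CLA18:2 than in LA by 0.59 ± 0.09 (adjusted p = 1.16e-06) and fell by 0.67 ± 0.09 in CLA18:3 against DMSO (adjusted p = 1.66e-07). CLA18:3 against DMSO called 2 higher and 2 lower in all, beside 19.1% and 16.7% of all genes. NR1H2 rose by 0.35 ± 0.06 and NR4A2, an orphan receptor, by 0.78 ± 0.22, while THRA, a thyroid hormone receptor, fell by 0.37 ± 0.13 beside VDR.

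Some genes followed the profiles of these genes closely across the 28 libraries. For each tested gene the 3 with the highest Pearson r of log2 CPM were taken among genes with a mean of at least 2 CPM, as a description without a test, since the libraries share treatments. ANGPTL4 was most like IGF2BP3 (r = 0.905), an RNA-binding protein, then ELK3 (0.901), a transcription factor of the ETS family, and GRAMD4 (0.893). PPARD was most like MYBBP1A (0.938), KHSRP (0.934) and HNRNPF (0.924), of which KHSRP and HNRNPF bind RNA. RXRA was most like LAPTM4A (0.939), a lysosomal membrane protein, SP140 (0.904), a nuclear body protein, and ERLEC1 (0.889), an endoplasmic reticulum lectin. PPARGC1B was most like USP22 (0.938), a deubiquitinase, SMAD5 (0.929), a signal transducer of bone morphogenetic proteins, and TSPAN14 (0.929). The highest r was 0.769 for PPARA, with SLC37A2, and 0.678 for RXRB, whose counts are too sparse for such a ranking.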

How the data were processed

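RNA of 28 HT-1080 cultures was extracted as total RNA with a column kit and sequenced with paired ends, per the labels' protocols. The values are raw read counts per gene, deposited by the authors, and the tools listed in the submitters' processing notes are featureCounts, HISAT, SAMtools and DESeq2, with the build hg38. The strand setting of counting is not given in the sources used here. Gene positions and exon lengths are those of GENCODE 29 (GRCh38).

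The 9 genes, the gene lists and the tests were chosen with earlier results of these data known, and the lists may have been chosen after values were seen. Counts were filtered by edgeR's filterByExpr on the 7 groups, which kept 16325 of 60286 genes and 99.9% of counts, and scaled by TMM. The edgeR 4.0.16 quasi-likelihood test (R 4.3.3) was fitted with 1 mean per group on all 28 libraries, and p-values were adjusted by Benjamini-Hochberg over all genes tested, with a threshold of 0.05. SE is the absolute log2 fold change over the square root of F, and intervals are 95%. Genes under the filter were tested by exact permutation over libraries. Counting intervals are exact, cover counting error only, and PCR copies are not independent molecules. The libraries are called independent replicates in the design text, and nothing says more of their source, so p-values measure the spread between these cultures.

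All 9 genes are named. Of each list, up to 4 genes with the smallest p among those past the test in LA, CLA18:2 and CLA18:3 against DMSO and in CLA18:2 against LA are named, except a few that are not reported here, and for likeness the 3 genes with the highest r of log2 CPM (prior count 0.5, mean of at least 2 CPM). The script was tested on simulated data. Alternatives were DESeq2 size factors, no low-count filter, the replicate block, only the groups compared, DESeq2 1.42.0, each library left out in turn, and the libraries low in mitochondrial transcripts left out.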

Additional observations from a re-analysis of the deposited data

Results flagged for a closer look

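Of 56 groups of 4 CPM values examined, 8 held a library far from the other 3. For normally distributed values chance gives about 1 in 20. That rate does not hold for groups of a few counts, such as ANGPTL4 and PPARG in CLA18:3 libraries. The number of flagged groups is therefore not read as an excess. For ANGPTL4, DMSO replicate 1 had 0.368 CPM and the other DMSO libraries 0.0926 to 0.129 CPM. ANGPTL4 was also apart in LA replicate 4, at 2.53 CPM beside 1.90 to 1.93 CPM, and in CLA18:3 replicate 1, at 0.0978 CPM beside 0 in the others. RXRB was apart in RSL3+CLA18:2 replicate 1, at 3.22 CPM beside 0.0450 to 0.216 CPM, and in CLA18:2 replicate 3, at 1.78 CPM beside 0.110 to 0.236 CPM. PPARG had 0.272 CPM in CLA18:3 replicate 3 and 0 in the other CLA18:3 libraries. PPARD had 118 CPM in CLA18:2 replicate 1, where the others had 125 to 126 CPM, and PPARA had 7.31 CPM in DMSO replicate 4, where the others had 9.53 to 9.99 CPM. The cause of these gaps was not tested.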

How the results depend on the processing

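No result changed direction while past the threshold. With only the groups compared in the fit, LA against DMSO called 2394 genes in place of 1358. RSL3 against DMSO called 33 genes, 112 with no low-count filter, 66 with DESeq2, and 20 (without DMSO replicate 3) to 29 with 1 library left out. RSL3+LA against LA called 8 genes, 164 with no filter, 37 with DESeq2, and 4 to 9 with 1 library left out, with 4 without RSL3+LA replicate 1, 2 or 3 and 5 without LA replicate 3 or 4. Of the 9 genes, RSL3+LA against DMSO called 2, but 1 with no filter, with the replicate block and without any one of DMSO replicates 1 to 4 or RSL3+LA replicates 1, 2 and 4. RSL3+LA against RSL3 called 1, but 2 with no filter and without RSL3 replicate 1. RSL3+CLA18:2 against CLA18:2 called 0, but 1 with DESeq2 size factors, no filter, the replicate block, DESeq2 and without RSL3+CLA18:2 replicate 3. The cause was not tested.

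The replicate numbers did not pair the libraries: of 84 correlations between same-numbered libraries 1 was over 0.1, with a median of 0.0047. Leaving out libraries low in mitochondrial transcripts was chosen after seeing the data. Few counts limit the precision for PPARG, PPARGC1A, PDK4 and RXRB and for ANGPTL4 in DMSO, RSL3 and CLA18:3 libraries. Why RXRB counts were low was not tested.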
